A study of Homo sapiens with 12 samples.

Results

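The tetraspanins are small membrane proteins, and 10 of their genes are described here out of 58174 genes in each expression table: CD9, CD63, CD81, CD82, CD151, TSPAN3, TSPAN4, TSPAN7, TSPAN8 and TSPAN14. The group was chosen by a measured value, the lower CD9 level after IGF2BP1 knockdown in both cell lines. CD9 is therefore given as a description with no test, and because the same contrast chose the group, the counts of other members that changed are descriptions as well. Poly-A RNA was sequenced from Hep-G2, a line derived from a liver tumor, and BE(2)-C, a line derived from a neuroblastoma. In each line, cells transfected with a control siRNA (siC) were compared with cells transfected with an siRNA pool against IGF2BP1 (siI1), 72 h after transfection, with 3 libraries in each of the 4 groups. By the study's methods, the siRNA concentration was higher for BE(2)-C than for Hep-G2. Each of the 12 libraries held between 12852988 and 15721210 reads on genes, with a median of 13896544.5. Levels are FPKM, read numbers scaled to gene length and library size, and each line's table was normalized on its own, so that levels are set side by side across lines with no test.

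Tetraspanins cross the membrane repeatedly and carry a large extracellular loop with a conserved Cys-Cys-Gly motif. They gather integrins, immunoglobulin superfamily proteins and membrane proteases into patches of the membrane, and several of them are standard markers of extracellular vesicles. IGF2BP1 is an oncofetal RNA-binding protein that binds many mRNAs, often in the 3′UTR, and is known for protecting target mRNAs from decay.

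The coding stretch of the Cys-Cys-Gly motif is shown for the members because it is the feature that defines the family. Each line gives 30 bases of the coding strand of the MANE Select transcript in GENCODE v44 (build hg38), 5′ to 3′, with the Cys-Cys-Gly codons in capitals. Each of the 10 genes held 1 such stretch between codons 145 and 156 of a protein of 228 to 270 residues, and the 10 stretches all crossed an exon junction.
CD9: gcgttgaacTGCTGTGGTttggctgggggc
CD63: gattttaagTGCTGTGGGgctgctaactac
CD81: acgcttgacTGCTGTGGCtccagcacactg
CD82: caggtgaagTGCTGCGGCtgggtcagcttc
CD151: gagttccacTGCTGTGGCagcaacaactca
TSPAN3: cagctgcatTGTTGTGGAattcacaactac
TSPAN4: gacttccgcTGCTGTGGCgtctccaactac
TSPAN7: agcctgagcTGCTGTGGTgtgcagaactac
TSPAN8: gagtttaaaTGCTGCGGTttggtcaatgga
TSPAN14: gctaaccagTGCTGTGGCgcatatggccct

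The line labels were checked against marker genes. The 7 liver markers (ALB, AFP, APOA1, APOB, TTR, HNF4A and SERPINA1) summed to between 7490 and 13696 FPKM in the Hep-G2 libraries and to at most 0.237 FPKM in the BE(2)-C libraries. ALB was the most abundant liver marker in Hep-G2, and 3 to 6 of the 7 liver markers were at 0 reads in each BE(2)-C library. Of neuroblastoma markers, MYCN had 54035 to 75613 reads per BE(2)-C library and at most 3 in any Hep-G2 library, and HAND2 had 8404 to 15060 reads against 0 in every Hep-G2 library. Each library thus carried the markers of its labelled line. The marker levels themselves moved with siI1. The liver marker sum of Hep-G2 was 7563, 7518 and 7490 FPKM in the siC libraries and 12012, 13521 and 13696 FPKM in the siI1 libraries. Of these 7 genes, 4 were called higher, 2 lower and 1 (APOB) not called. ALB rose by 0.95 ± 0.16 and APOA1 by 1.70 ± 0.17 on the log2 scale, while AFP fell by 0.59 ± 0.10 (limma, adjusted p = 0.00323, 0.000282 and 0.00290). TTR fell by 0.77 ± 0.13, and SERPINA1 and HNF4A rose by 0.64 ± 0.11 and 0.21 ± 0.05 (limma, adjusted p = 0.00289, 0.00331 and 0.0118). Among the BE(2)-C markers, HAND2 fell by 0.73 ± 0.04, DBH fell by 0.37 ± 0.08 and TH rose by 0.61 ± 0.09 (limma, adjusted p = 0.000169, 0.0128 and 0.00369), and MYCN and GATA3 were not called. The part of these shifts in the tetraspanin values was not tested.

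Hep-G2 siI1 libraries 1 and 2 stood apart. In siI1 library 1, the log2 deviation from the other siI1 libraries had an SD of 0.284 over 11247 genes, against 0.195 and 0.205 in siI1 libraries 2 and 3. This deviation was correlated with gene length across genes (Spearman's rho 0.44), and genes are not independent replicates. The correlations were -0.37 and -0.36 in siI1 libraries 2 and 3, and 0.28, -0.36 and 0.17 in the Hep-G2 siC libraries. In Hep-G2 siI1 library 2, 12 genes had at least 15 reads while no other Hep-G2 library had more than 1. The same count was 0 in each other library of both lines. SFRP2, a secreted Wnt antagonist, had 115 reads in that library and 0 in the other Hep-G2 libraries, and TSPAN18, a tetraspanin, had 16 reads there. MYCN had 3 reads in that library and 0 to 2 in the other Hep-G2 libraries. The source of these reads was not tested.

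**Figure D1:**
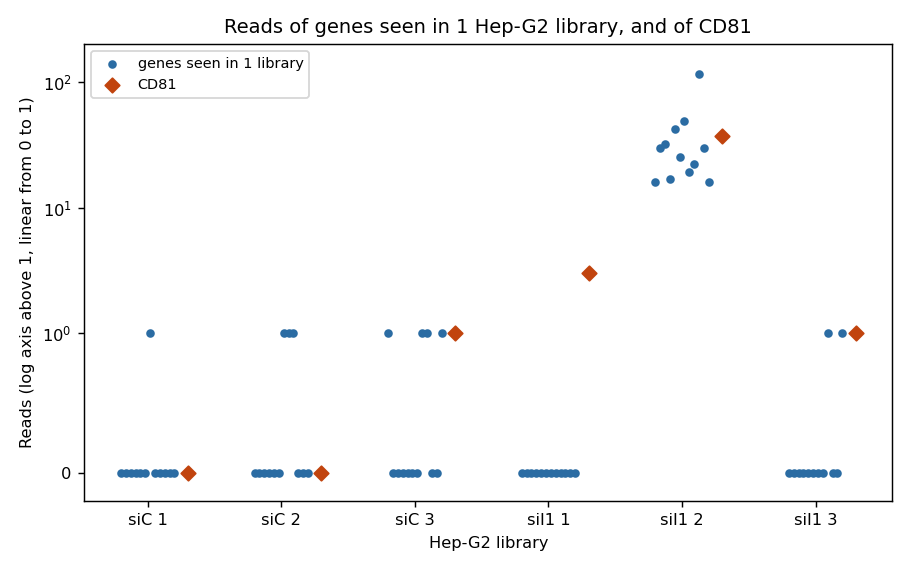
Reads per Hep-G2 library (vertical axis, logarithmic above 1 and linear from 0 to 1) of the 12 genes with at least 15 reads in 1 library and at most 1 read in the others (blue points), with CD81 as diamonds. All 12 genes have their reads in siI1 library 2, where CD81 has 37 reads.

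The knockdown was read first from its target. IGF2BP1 was at 48.5, 46.6 and 50.8 FPKM in the Hep-G2 siC libraries and at 12.6, 10.7 and 10.7 FPKM in the siI1 libraries. In BE(2)-C it was at 21.3, 20.6 and 21.6 FPKM with siC and at 4.85, 4.75 and 4.87 FPKM with siI1. The groups did not overlap in either line, and every library matched its label. On the log2(FPKM + 0.1) scale the change was -2.10 ± 0.08 (SE) in Hep-G2 (limma, adjusted p = 7.83e-06), beside -2.11 ± 0.05 in BE(2)-C (adjusted p = 1.48e-05). Of the paralogs, IGF2BP3 rose in BE(2)-C by 0.34 ± 0.05 (limma, adjusted p = 0.00418) and was not called in Hep-G2 (-0.11 ± 0.09, adjusted p = 0.383), where it was called lower without siI1 library 1 (-0.21, adjusted p = 0.0239). IGF2BP2 was at 28.7 ± 0.58 FPKM (SD, n = 3) with siC and 26.0 ± 1.72 FPKM with siI1 in Hep-G2 (-0.14, limma, adjusted p = 0.106), and had at most 3 reads in any BE(2)-C library.

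CD9, a partner of integrins and immunoglobulin superfamily proteins with a role in gamete fusion, was the member the group was selected on. It was at 12.9, 12.5 and 12.8 FPKM in the Hep-G2 siC libraries and at 4.26, 3.75 and 3.99 FPKM in the siI1 libraries. In BE(2)-C it was at 47.5, 45.4 and 42.9 FPKM with siC and at 7.78, 6.86 and 7.97 FPKM with siI1. The lowest siC library was above the highest siI1 library in both lines, as the choice of the gene fixed. On the log2(FPKM + 0.1) scale the Hep-G2 difference was -1.64 ± 0.07 (SE), a 3.13-fold lower level, and the BE(2)-C difference was -2.57 ± 0.07, a 5.95-fold lower level. CD9 reads ranged from 176 to 659 per library in Hep-G2 and from 320 to 2250 in BE(2)-C.

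**Figure D2:**
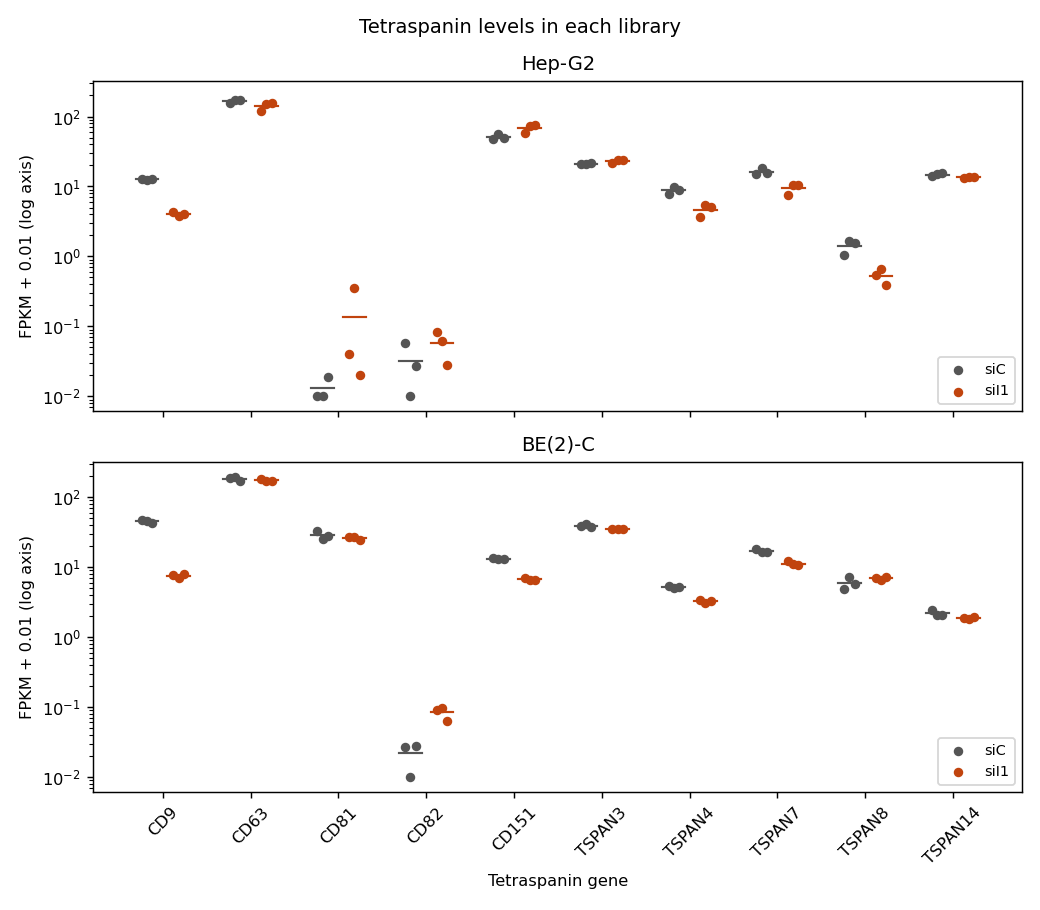
FPKM + 0.01 of the 10 tetraspanin genes on a logarithmic axis in Hep-G2 (top) and BE(2)-C (bottom), with 1 point per library and a line at the mean of the 3 libraries, for siC (gray) and siI1 (orange). CD63 is the most abundant in both lines, and CD9 is lower with siI1 in both. CD81 lies near 0 in Hep-G2, and CD82 lies near 0 in both lines.

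CD9 lies on chromosome 12 (hg38, 6199715 to 6238271, plus strand). Its 3′UTR in the MANE Select transcript is 438 nt long and holds 7 matches to CAUA, CAUC or CAUU on the RNA strand, short motifs known to be bound by IGF2BP proteins. That is 1.60 matches per 100 nt, beside a median of 1.16 over 12124 genes tested in Hep-G2 and 1.17 over 11936 genes tested in BE(2)-C, counting 3′UTRs of at least 100 nt. The middle range in Hep-G2, from the first to the third quartile, was 0.820 to 1.47. Among the other members the value ranged from 0.420 in CD63 to 1.52 in TSPAN7, with 0.832 in TSPAN4 and 0.782 in CD151. A 30-base window of the CD9 3′UTR on chromosome 12 from 6237929 to 6237958 (hg38, plus strand) is shown as DNA because it holds the highest number of matches, 2, which are in capitals.
CD9 3′UTR: tgccactaattttagtattCATTctgCATT
Such matches describe the letters of the sequence, and binding was not measured.

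Of the 9 members other than CD9, 7 passed the filter on low values in Hep-G2 and 8 in BE(2)-C. In Hep-G2, 3 were lower and 1 was higher with siI1 (limma, adjusted p below 0.05), and 3 were not called. Over all 19436 genes tested in Hep-G2, 44.8% were called, 23% lower and 21.9% higher. In BE(2)-C, 4 members were lower, 0 were higher and 4 were not called, with 0 higher also at an unadjusted p below 0.05 and by limma-voom on recovered reads. Over the 18656 genes tested in BE(2)-C, 28.2% were called, 14.8% lower and 13.3% higher. The median log2 difference of these members was -0.24 (Hep-G2) and -0.19 (BE(2)-C), beside 0.0069 and 0.016 over all genes tested. Since CD9 chose the group in these contrasts, nothing is read from the counts.

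TSPAN4 and TSPAN7 were the members other than CD9 called lower in both lines. TSPAN4, a component of the retraction-fiber vesicles called migrasomes, was at 7.78, 9.85 and 8.83 FPKM with siC and 3.62, 5.34 and 5.06 FPKM with siI1 in Hep-G2. The BE(2)-C levels were 5.38, 5.01 and 5.20 FPKM with siC and 3.38, 3.03 and 3.3 FPKM with siI1. The groups did not overlap in either line, and TSPAN4 fell by 0.92 ± 0.16 in Hep-G2 (limma, adjusted p = 0.00373) and by 0.67 ± 0.08 in BE(2)-C (adjusted p = 0.00122) on the log2 scale. TSPAN7, which is abundant in the nervous system, was at 15.1, 18.1 and 15.5 FPKM with siC and 7.47, 10.4 and 10.3 FPKM with siI1 in Hep-G2. Its BE(2)-C levels were 18.2, 16.4 and 16.6 FPKM with siC and 12.1, 11.1 and 10.6 FPKM with siI1. These groups did not overlap either, and TSPAN7 fell by 0.79 ± 0.14 in Hep-G2 (limma, adjusted p = 0.00417) and by 0.60 ± 0.07 in BE(2)-C (adjusted p = 0.00124). Hep-G2 siI1 library 1 was the lowest for both genes. Without it, both genes were still called lower in Hep-G2.

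CD151, which binds laminin-binding integrins, went in opposite directions. In Hep-G2 it was at 48.3, 56.5 and 49.5 FPKM with siC and at 58.1, 73.7 and 75.6 FPKM with siI1. BE(2)-C had 13.5, 13.2 and 12.9 FPKM with siC and 6.88, 6.57 and 6.60 FPKM with siI1. The lowest siI1 library in Hep-G2 lay close to the highest siC library, whereas the groups in BE(2)-C were far apart. CD151 rose by 0.42 ± 0.11 in Hep-G2 (limma, adjusted p = 0.0233) and fell by 0.97 ± 0.05 in BE(2)-C (adjusted p = 0.000132). The Hep-G2 call was lost with no trend in the fit (adjusted p = 0.0564) and without siC library 1 (adjusted p = 0.0794), siC library 3 (0.0773), siI1 library 2 (0.0815) or siI1 library 3 (0.0743). The change stayed at 0.35 to 0.42 in these fits, and limma-voom called CD151 higher (0.42, adjusted p = 0.00424). With libraries scaled to equal sums of FPKM, the Hep-G2 change was smaller, at 0.25, and still called (limma, adjusted p = 0.0397). CD151 overlaps POLR2L on the opposite strand, which was at 51.1 to 72.1 FPKM in Hep-G2 and 65.2 to 77.4 FPKM in BE(2)-C. Of the 10 members, 9 overlap a gene on the opposite strand, all but TSPAN7. In both lines the genes opposite CD9, CD82 and TSPAN14 were at 0 FPKM in every library, and the gene opposite TSPAN4 was at most at 0.565 FPKM. The gene opposite CD63 was at up to 4.10 FPKM in Hep-G2 against 6.19 to 8.27 FPKM in BE(2)-C. In BE(2)-C the genes opposite CD81 and TSPAN3 were at 1.01 to 2.30 and 1.09 to 3.92 FPKM, and in Hep-G2 at most at 0.048 and 0.834 FPKM. The strand setting of the authors' read counting is not given in the sources used here. It is therefore not known how reads in the stretch where CD151 and POLR2L overlap were assigned.

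TSPAN8, found on vesicles and in several carcinomas, was low in Hep-G2, with 13 to 58 reads per library. It was at 1.02, 1.63 and 1.56 FPKM with siC and 0.528, 0.654 and 0.386 FPKM with siI1 there. Levels in BE(2)-C were 4.89, 7.18 and 5.65 FPKM with siC and 6.93, 6.57 and 7.12 FPKM with siI1. The groups were apart in Hep-G2 and overlapped in BE(2)-C. TSPAN8 fell by 1.27 ± 0.26 in Hep-G2 (limma, adjusted p = 0.00684) and was not called in BE(2)-C (0.23 ± 0.13, adjusted p = 0.247). For this low gene, limma-voom on the recovered reads gave -1.38 in Hep-G2 (adjusted p = 0.00236). Without siC library 2, the highest of its group in BE(2)-C, TSPAN8 was called higher there (0.38, limma, adjusted p = 0.0289). TSPAN8 overlaps LGR5 on the opposite strand, which was at 12.6 to 28.0 FPKM in Hep-G2 against 12.6 to 22.6 FPKM in BE(2)-C, and the same limit on strand applies.

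CD63, a tetraspanin of late endosomes and of vesicles released from them, was the most abundant member in both lines. It was at 157, 175 and 170 FPKM with siC and 119, 153 and 157 FPKM with siI1 in Hep-G2. CD63 levels in BE(2)-C were 186, 196 and 169 FPKM with siC and 184, 168 and 169 FPKM with siI1. CD63 was called in neither line (Hep-G2 -0.24 ± 0.11, adjusted p = 0.137; BE(2)-C -0.078 ± 0.07, adjusted p = 0.443, limma), but was called lower in Hep-G2 with libraries scaled to equal sums of FPKM (-0.40, adjusted p = 0.00502). A block for replicate number also gave a lower call for CD63 in Hep-G2 (-0.24, limma, adjusted p = 0.0479). The share of CD63 in the summed FPKM of 33 tetraspanins was 42.5 to 43.7% with siC and 36.0 to 38.8% with siI1 in Hep-G2. In BE(2)-C this share was 42.7 to 46.1% with siC and 48.8 to 50.1% with siI1. The share of CD9 went from 3.05 to 3.48% with siC to 0.945 to 1.29% with siI1 in Hep-G2, and from 10.7 to 11.2% to 1.99 to 2.30% in BE(2)-C.

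TSPAN3 was at 21.1, 21.3 and 21.4 FPKM with siC and 21.3, 23.6 and 23.9 FPKM with siI1 in Hep-G2, where it was not called (0.11 ± 0.06, limma, adjusted p = 0.174). TSPAN3 levels in BE(2)-C were 38.9, 40.9 and 37.6 FPKM with siC and 34.9, 35.6 and 35.3 FPKM with siI1. It fell there by 0.15 ± 0.04 (limma, adjusted p = 0.0458). This call lay close to the threshold and was lost with libraries scaled to equal sums of FPKM (adjusted p = 0.0921), under median centring (0.0899), with no trend (0.148), with no filter on low values (0.0619), and without any 1 of BE(2)-C siC library 1 (adjusted p = 0.0709), siC library 2 (0.110), siI1 library 1 (0.122), siI1 library 2 (0.111) or siI1 library 3 (0.126). The call was also lost with a block for replicate number (limma, adjusted p = 0.0580). The change of TSPAN3 stayed at -0.16 to -0.12 in these fits, and limma-voom called it lower (-0.15, adjusted p = 0.0261). In Hep-G2, TSPAN3 was called higher without siI1 library 1 (0.16, adjusted p = 0.0122), and its direction turned when libraries were scaled to equal sums of FPKM (-0.057). TSPAN14, which escorts the protease ADAM10 to the cell surface, was at 14, 14.9 and 15.4 FPKM with siC and 13.4, 13.7 and 13.8 FPKM with siI1 in Hep-G2. Its BE(2)-C levels were 2.46, 2.06 and 2.05 FPKM with siC and 1.83, 1.82 and 1.91 FPKM with siI1. The groups were apart in both lines by small margins, and TSPAN14 was called in neither (-0.11 ± 0.06, adjusted p = 0.138, and -0.22 ± 0.11, adjusted p = 0.184, limma). It was called lower in BE(2)-C by limma-voom on recovered reads (-0.24, adjusted p = 0.0278), and with equal sums of FPKM it was called lower in Hep-G2 (-0.28, limma, adjusted p = 0.00631).

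CD81, part of the B cell co-receptor and an entry factor for hepatitis C virus, was near 0 in Hep-G2. It had 0, 0 and 1 reads in the siC libraries and 3, 37 and 1 reads in the siI1 libraries, and the 37 reads were in siI1 library 2, described above. It did not pass the filter there and was not tested. The BE(2)-C levels were 32.9, 24.9 and 28.1 FPKM with siC and 27.1, 27.2 and 24.7 FPKM with siI1, with overlapping groups (-0.11 ± 0.10, limma, adjusted p = 0.460). CD82, known as a suppressor of metastasis, was not tested in either line. It had 3, 0 and 1 reads with siC and 4, 3 and 1 reads with siI1 in Hep-G2. The BE(2)-C libraries had 1, 0 and 1 reads with siC and 5, 5 and 3 reads with siI1, too few for a fold.

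**Figure D3:**
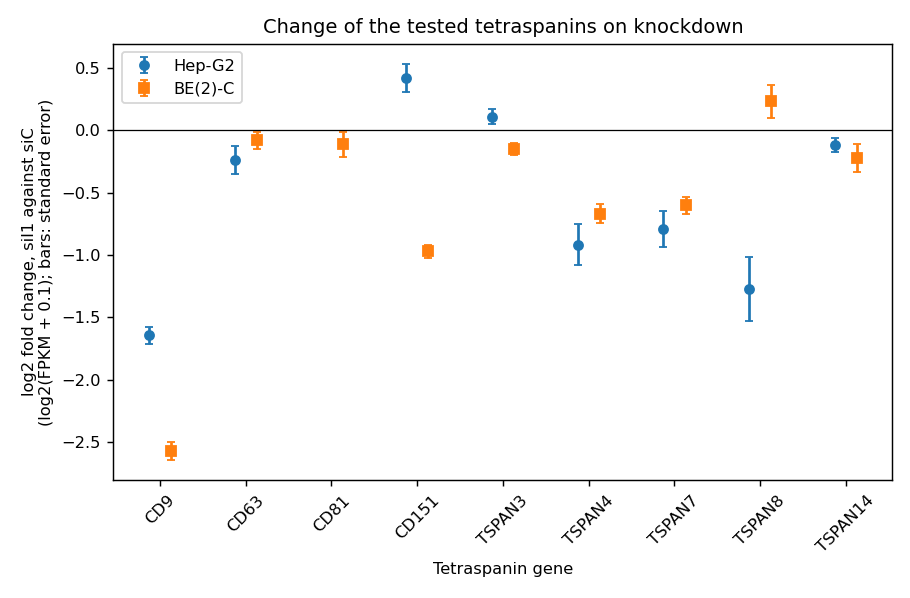
log2 fold change of siI1 against siC on the log2(FPKM + 0.1) scale for the members tested in at least 1 line, in Hep-G2 (circles) and BE(2)-C (squares), with standard errors from limma as bars. CD9, TSPAN4 and TSPAN7 lie below 0 in both lines, and CD151 lies above 0 in Hep-G2 (0.42) and below 0 in BE(2)-C (-0.97).

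The order of the mean levels in the siC libraries differed between the lines. In Hep-G2 it ran from CD63 (167 FPKM) through CD151 (51.5), TSPAN3 (21.2), TSPAN7 (16.2), TSPAN14 (14.8), CD9 (12.7) and TSPAN4 (8.82) to TSPAN8 (1.41), with CD82 and CD81 near 0. Of the neighbours in that order, TSPAN7 and TSPAN14 overlapped between libraries, as did CD82 and CD81. The BE(2)-C order was CD63 (184 FPKM), CD9 (45.3), TSPAN3 (39.1), CD81 (28.6), TSPAN7 (17.1), CD151 (13.2), TSPAN8 (5.91), TSPAN4 (5.20) and TSPAN14 (2.19), with CD82 near 0. TSPAN8 and TSPAN4 were the neighbours that overlapped. With siI1, CD9 stood at rank 7 of the 10 members in Hep-G2 (4.0 FPKM), where it overlapped TSPAN4. Its rank in BE(2)-C was 5 (7.54 FPKM), where it overlapped TSPAN8, which in turn overlapped CD151.

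Of the 23 other tetraspanins, 14 were tested in Hep-G2, of which 4 were lower and 7 higher with siI1, beside 44.8% of all genes called in either direction. Tested in BE(2)-C were 12, of which 3 were lower and 3 higher, beside 28.2% of all genes. TSPAN17 was lower in both lines, at -0.64 ± 0.11 in Hep-G2 (limma, adjusted p = 0.00275) and -0.61 ± 0.07 in BE(2)-C (adjusted p = 0.00105). TSPAN9 was higher in both, at 0.69 ± 0.07 (adjusted p = 0.000299) and 0.61 ± 0.05 (adjusted p = 0.000462). TSPAN33 went from 7.10, 7.42 and 7.05 FPKM with siC to 17.1, 20.3 and 21.1 FPKM with siI1 in Hep-G2, and from 4.20, 3.40 and 4.6 FPKM to 2.61, 2.26 and 2.38 FPKM in BE(2)-C. The groups did not overlap in either line.

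TSPAN15 was also called in opposite directions, with a rise in Hep-G2 (0.72 ± 0.10) but a fall in BE(2)-C (-0.42 ± 0.06). TSPAN13 did the reverse (Hep-G2 -0.38 ± 0.10, BE(2)-C 0.56 ± 0.07). The Hep-G2 call of TSPAN13 was lost with no trend (limma, adjusted p = 0.0516) and without siC library 1 (0.0631), siC library 2 (0.0506) or siC library 3 (0.0658). The change stayed at -0.39 to -0.37 in these fits, and limma-voom called TSPAN13 lower (-0.38, adjusted p = 0.00890). TSPAN5, TSPAN10, TSPAN15, TSPAN17 and TSPAN33 belong with TSPAN14 to the tetraspanins that escort ADAM10. The ADAM10 level itself was not called in Hep-G2 (0.0038 ± 0.11, limma, adjusted p = 0.982) and rose in BE(2)-C by 0.36 ± 0.08 (adjusted p = 0.0189). Its difference between the lines was not called (0.35 ± 0.14, limma, adjusted p = 0.0624).

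TSPAN1 was lower in Hep-G2, at 11.5, 13.3 and 13.0 FPKM with siC and 2.53, 3.28 and 2.97 FPKM with siI1 (-2.07 ± 0.11, limma, adjusted p = 2.46e-05). It had at most 4 reads in any BE(2)-C library and was not tested there. TSPAN5 was lower in Hep-G2 (-1.30 ± 0.20) and not called in BE(2)-C (-0.14 ± 0.23). TSPAN6 and TSPAN31 were higher in Hep-G2 (0.44 ± 0.04 and 0.57 ± 0.11) and not called in BE(2)-C (0.073 ± 0.08 and -0.29 ± 0.12), where limma-voom called TSPAN31 lower (-0.29, adjusted p = 0.0200). UPK1A, a tetraspanin of the urothelium, was called higher in Hep-G2 on 3 to 20 reads per library (1.77 ± 0.30) and had 0 reads in BE(2)-C. TSPAN10 was called higher in Hep-G2 on 20 to 51 reads (0.79 ± 0.22), and TSPAN11 in BE(2)-C on 12 to 52 reads (1.06 ± 0.27). In simulated data the fit gave some wrong calls above its nominal rate, nearly all in genes with very few reads, so these low genes are less certain. By limma-voom on the recovered reads the adjusted p was 0.00258 for UPK1A, 0.00574 for TSPAN10 and 0.000363 for TSPAN11. Without 1 library the call of TSPAN10 was lost for Hep-G2 siC library 1 (adjusted p = 0.0635), siC library 2 (0.0692), siI1 library 2 (0.0693) or siI1 library 3 (0.0851), and with no filter on low values (0.0683). The call of TSPAN11 was lost without BE(2)-C siC library 2 (0.0566), siC library 3 (0.0679), siI1 library 1 (0.0799) or siI1 library 3 (0.0954), and with no filter (0.0553). A block for replicate number lost the call of TSPAN11 as well (limma, adjusted p = 0.0626). In these fits the change stayed at 0.69 to 0.79 for TSPAN10 and 0.94 to 1.08 for TSPAN11. The remaining tested tetraspanins were not called: TSPAN12 (-0.10 ± 0.31), TSPAN32 (0.33 ± 0.36) and ROM1 (-0.51 ± 0.22) in Hep-G2, and TSPAN10 (0.39 ± 0.48), TSPAN18 (-0.16 ± 0.08) and ROM1 (-0.22 ± 0.32) in BE(2)-C.

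**Figure D4:**
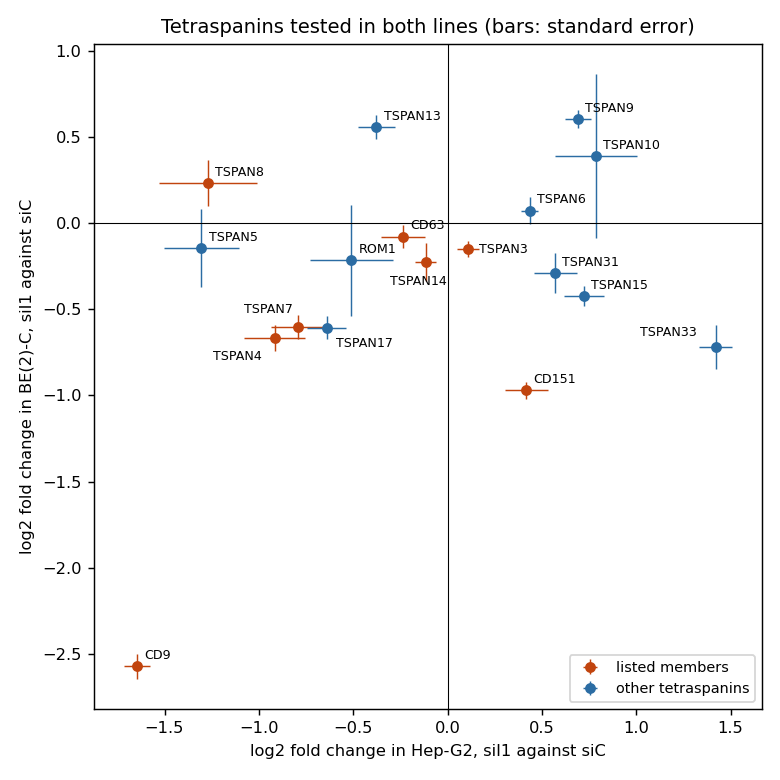
log2 fold change of siI1 against siC in Hep-G2 (horizontal axis) and BE(2)-C (vertical axis) for the 18 tetraspanins tested in both lines, members in orange and other tetraspanins in blue, with standard errors from limma as bars. CD9 lies at -1.64 and -2.57, and TSPAN33, TSPAN15 and CD151 lie right of and below 0.

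Genes whose proteins bind tetraspanins or act with them were counted from a list of 18. In Hep-G2, 16 were tested, of which 9 were lower and 3 higher, beside 23% and 21.9% of all genes tested there. In BE(2)-C 12 were tested, of which 4 were lower and 3 higher, beside 14.8% and 13.3% of all genes. Nothing is read from these counts. IGSF8 and PTGFRN, the immunoglobulin superfamily partners of CD9 and CD81, were lower in both lines (IGSF8 by -1.21 ± 0.17 in BE(2)-C, against -0.44 ± 0.09 in Hep-G2). The change of PTGFRN was -1.21 ± 0.09 (Hep-G2) and -0.52 ± 0.06 (BE(2)-C). ITGA6, the laminin-binding integrin subunit paired with CD151, was lower in both lines, at -1.28 ± 0.11 and -1.17 ± 0.23. ADAM17, a sheddase, was higher in both, at 0.44 ± 0.08 and 0.54 ± 0.09, and its Hep-G2 call was lost with libraries scaled to equal sums of FPKM (limma, adjusted p = 0.0794). ITGB1 fell in Hep-G2 (-0.66 ± 0.10) but rose in BE(2)-C (0.42 ± 0.06). The largest called fall of the list in Hep-G2 was that of ITGA3 (-2.26 ± 0.14, limma, adjusted p = 3.55e-05), and the largest called rise that of EPCAM (0.72 ± 0.08, adjusted p = 0.000418). In BE(2)-C, ITGA3 had 5 to 10 reads per library and was not tested. EPCAM had 1 to 14 reads there and was not called (0.39 ± 0.51, limma, adjusted p = 0.617).

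Among 21 genes of extracellular vesicle formation, 19 were tested in Hep-G2, of which 10 were lower and 1 higher, beside 23% and 21.9% of all genes. Of the same genes 20 were tested in BE(2)-C, of which 6 were lower and 3 higher, beside 14.8% and 13.3%. Nothing is read from these counts either. VPS4A, an ATPase of the ESCRT machinery, was lower in both lines (-0.91 ± 0.12 and -0.85 ± 0.05, limma, adjusted p = 0.000938 and 0.000200). HGS and VPS4B fell in Hep-G2 (-0.44 ± 0.05 and -0.38 ± 0.09) but rose in BE(2)-C (0.19 ± 0.05 and 0.29 ± 0.07), and FLOT2 did the reverse (0.39 ± 0.07 and -0.24 ± 0.07). The largest called change of the list was that of STAM in Hep-G2 (-1.29 ± 0.06), and for BE(2)-C that of RAB27B (1.16 ± 0.16), which was not tested in Hep-G2. STAM was not called in BE(2)-C (0.041 ± 0.08, limma, adjusted p = 0.742). The BE(2)-C calls of HGS, VPS4B and FLOT2 were each lost in several fits with 1 library left out, where fewer libraries entered. In those fits the log2 changes were 0.16 to 0.21 for HGS, 0.27 to 0.28 for VPS4B and -0.25 to -0.20 for FLOT2, close to those of all libraries. HGS was not called with no trend (limma, adjusted p = 0.101) or without siC library 2 (0.0828), siC library 3 (0.0959), siI1 library 1 (0.107), siI1 library 2 (0.0997) or siI1 library 3 (0.0829). VPS4B was not called without siC library 2 (0.0550), siC library 3 (0.0589), siI1 library 1 (0.0671) or siI1 library 3 (0.0792). FLOT2 was not called with no filter on low values (0.0542), with no trend (0.0953), or without siC library 1 (0.0829), siC library 2 (0.0723), siI1 library 2 (0.112) or siI1 library 3 (0.113).

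The difference between the lines was tested for genes that passed the filter in both, as the BE(2)-C change minus the Hep-G2 change. The siRNA concentration also differed between the lines, and its part in these differences was not tested. For CD9 the difference between the lines was -0.93 ± 0.10 (SE) on the log2 scale and is a description. Of the 9 other members 7 were tested, of which 2 differed downwards and 1 upwards. Over all 15362 genes tested, 40.2% differed, 18.5% downwards and 21.7% upwards. CD151 differed by -1.39 ± 0.13 (limma, adjusted p = 1.18e-05), TSPAN8 by 1.5 ± 0.29 (adjusted p = 0.00163) and TSPAN3 by -0.26 ± 0.07 (adjusted p = 0.0146). With libraries scaled to equal sums of FPKM, TSPAN3 was not called (-0.073, adjusted p = 0.389). TSPAN4 (0.25, 95% interval -0.16 to 0.66), TSPAN7 (0.19, -0.18 to 0.56), CD63 (0.16, -0.15 to 0.47) and TSPAN14 (-0.11, -0.35 to 0.13) were not called. Under that scaling CD63 (0.35, limma, adjusted p = 0.0170), TSPAN4 (0.43, 0.0420) and TSPAN7 (0.38, 0.0369) differed upwards, and the sign of TSPAN14 turned (0.076). IGF2BP1 itself differed by -0.016 ± 0.09 and was not called (limma, adjusted p = 0.914), whereas its paralog IGF2BP3 differed by 0.45 ± 0.11 (adjusted p = 0.00676). Among the other tetraspanins 10 were tested, of which 4 differed downwards and 2 upwards. The widest differences were those of TSPAN33 (-2.14 ± 0.16, limma, adjusted p = 2.16e-06), TSPAN5 (1.16 ± 0.28, adjusted p = 0.00709) and TSPAN15 (-1.15 ± 0.12, adjusted p = 3.47e-05).

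The genes most like CD9 were found among 8377 protein-coding genes with a mean of at least 1 FPKM in all 4 groups, by Pearson's r over the 12 libraries of log2(FPKM + 0.1) minus the siC mean of the same table. The libraries share their groups, so r mostly follows the siI1 to siC differences, and it is a description. The closest were GNG4 (r = 0.994), a G protein subunit, CPNE2 (0.994), CHST14 (0.99), a sulfotransferase of dermatan sulfate synthesis, ST6GAL1 (0.99), a sialyltransferase, and FITM2 (0.989), a protein of lipid droplet formation. Their log2 changes were smaller than that of CD9, from -0.41 (FITM2) to -1.08 (CPNE2) in Hep-G2 and from -0.53 (FITM2) to -1.64 (CPNE2) in BE(2)-C. In all, 254 genes had an r above 0.9. The tetraspanin ranked highest was TSPAN17 at rank 273 (r = 0.895), followed by TSPAN14 (0.814), TSPAN7 (0.814) and TSPAN4 (0.810), and TSPAN9 was ranked 8248 (-0.907).

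The scaling of the Hep-G2 libraries bears on the small changes. With libraries scaled to equal sums of FPKM, the median log2 difference over all genes moved by -0.15, and the share of called genes that were higher went from 48.8 to 35.5%. CD63 and TSPAN14 were then called lower in Hep-G2, as given above, and so were IGF2BP2 (-0.31, limma, adjusted p = 0.0165) and ROM1 (-0.66, adjusted p = 0.0411). The higher levels of CD151 (0.25), TSPAN6 (0.27) and FLOT2 (0.23) were smaller under this scaling and still called. The directions of CD9, CD151, TSPAN4, TSPAN7 and TSPAN8 did not turn in either line under this scaling or under median centring.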

How the data were processed

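RNA was taken 72 h after transfection, with 3 siC and 3 siI1 libraries per line from strand-specific poly-A preparations. Per the labels, the authors used cutadapt 1.14, HISAT2 2.1.0, SAMtools 1.5, featureCounts 1.5.3 and edgeR 3.30.3 with build hg38. The deposited values are FPKM per gene, scaled by the authors with TMM within each line, beside a column with the gene length in nt. Columns with the authors' own log2 fold changes, p-values and FDR are in the tables and were not used. The strand setting of the counting is not given in the sources used here.

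FPKM multiplied by gene length and a library size recovered from the values gave whole reads for 100% of the values above 0 (tolerance 0.01). Genes that reached an FPKM of 0.1 in 3 or more of the 6 libraries were tested with limma 3.58.1 (R 4.3.3, mean-variance trend, two-sided) on log2(FPKM + 0.1), which understates the change of low genes, with Benjamini-Hochberg adjustment over all tested genes at a threshold of 0.05. The difference between lines was the interaction in a fit of all 12 libraries. Tested on simulated data, the fit gave the right directions and sizes. It missed many of the known changes in genes with few reads, and its wrong calls exceeded the nominal rate, nearly all in genes with very few reads. On the same simulated data limma-voom on reads missed fewer changes, with wrong calls near the nominal rate. It was kept as an alternative, beside other pseudocounts, filters and scalings, no trend, a replicate block, a stricter threshold and leaving out each library. Python 3.11.15, NumPy 2.4.6, pandas 2.3.3 and Matplotlib 3.10.9 were used for tables and plots.

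Named genes were IGF2BP1 and its paralogs, the members, every other tetraspanin tested, partner and vesicle genes called in both lines or most changed in a line and direction, some line markers, and the 5 genes most like CD9. ADAM10, the genes seen in 1 library and the overlapping genes were named after their values were seen. The members and lists were chosen with earlier results of these data known. The study's methods call the libraries biological replicates, and the labels do not name separate cultures, so p-values measure the spread between these libraries.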

Additional observations from a re-analysis of the deposited data

Results flagged for a closer look

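For 9 of the 17 tetraspanins other than CD9 that were tested, the siI1 effect differed between the lines by the test of the difference itself (BE(2)-C minus Hep-G2, limma, log2 scale). Among the members these were CD151 (-1.39), TSPAN3 (-0.26) and TSPAN8 (1.5). Among the other tetraspanins they were TSPAN5 (1.16), TSPAN6 (-0.36), TSPAN13 (0.93), TSPAN15 (-1.15), TSPAN31 (-0.86) and TSPAN33 (-2.14). Over all genes tested, 40.2% differed between the lines. With libraries scaled to equal sums of FPKM, TSPAN3 (-0.073, adjusted p = 0.389) and TSPAN6 (-0.18, adjusted p = 0.158) were not called by limma, whereas CD63 (0.35, adjusted p = 0.0170), TSPAN4 (0.43, adjusted p = 0.0420) and TSPAN7 (0.38, adjusted p = 0.0369) were. The lines also differed in siRNA concentration, and the cause of these differences was not tested.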

How the results depend on the processing

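Counts and named genes were recomputed under the alternatives, and in these fits no called change of a named gene turned its direction. The differences between lines were not refitted with limma-voom, without the trend or with other filters. With a pseudocount of 1, which by construction shrinks low values, the CD9 difference was -1.46 (Hep-G2) and -2.44 (BE(2)-C), and the difference between lines of IGF2BP1 was 0.083. With libraries scaled to equal sums of FPKM, CD9 was at -1.81 in Hep-G2 and its difference between lines at -0.74. Members called lower in Hep-G2 were then 5, beside 5835 of all genes. Between lines 1 member differed downwards and 4 upwards, beside 2039 and 4532 of all genes. Under this scaling TSPAN3 in Hep-G2 was at -0.057, and the differences between lines of IGF2BP1 (0.17), TSPAN14 (0.076) and TSPAN9 (0.10) turned sign. Without the trend, limma called 0 members higher in Hep-G2. At a threshold of 0.01, which by construction calls fewer genes, 2727 genes and 0 members were higher in Hep-G2, 1475 genes were lower and 1139 higher in BE(2)-C, and between lines 1899 genes and 1 member differed downwards and 2172 genes and 1 member upwards. Where no construction is named, the cause was not tested.

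Leaving out each library in turn gave 0 to 2 members called higher in Hep-G2, 0 to 1 in BE(2)-C, and 1519 to 2103 genes called higher in BE(2)-C, where fewer libraries entered the fit. The CD9 difference ranged from -1.69 to -1.60 (Hep-G2) and from -2.61 to -2.51 (BE(2)-C). Values that were not called changed sign: TSPAN12 in Hep-G2 (-0.25 to 0.16), and STAM (-0.027 to 0.12), EPCAM (-0.13 to 0.65) and ROM1 (-0.47 to 0.013) in BE(2)-C. So did the differences between lines of IGF2BP1 (-0.056 to 0.064) and TSPAN17 (-0.068 to 0.10).

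The siC and siI1 libraries were not paired by replicate number in the main fit. Over genes, same-numbered deviations had correlations of 0.063, 0.035 and -0.0062 (Hep-G2) and 0.023, -0.010 and -0.0028 (BE(2)-C), and not every library was most correlated with its own number. A fit with that block called 4502 genes lower and 4318 higher for Hep-G2, against 2531 lower and 2141 higher for BE(2)-C, with 4 and 3 members lower. Under the block CD63 was called lower in Hep-G2 (-0.24, limma, adjusted p = 0.0479), and for BE(2)-C TSPAN3 (adjusted p = 0.0580) and TSPAN11 (0.0626) were not called. limma-voom called 4822 genes lower and 4576 higher for Hep-G2, and 3329 lower against 3201 higher for BE(2)-C. Genes with few reads, such as TSPAN8 in Hep-G2, are limited by depth.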
